A study of Homo sapiens with 30 samples.

Results

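Nuclear mTOR was compared with wild-type mTOR in LNCaP cells given androgen. LNCaP is an established line of human prostate cancer whose growth depends on androgen. The 2 groups were chosen by their labels alone, 3 libraries with NLS-mTOR against 3 with WT-mTOR, which makes 6 of the 30 samples of the series. All genes entered the comparison, and 18296 of the 58735 listed genes had enough counts to be tested. The NLS cells carried mTOR fused to a nuclear localization signal, and the WT cells carried mTOR without a tag. In both groups an shRNA (shmTOR) lowered the cells' own mTOR and the replacement was expressed from an inducible system. Both were deprived of androgen for 48 h, in 2% serum stripped with charcoal, and then received 10 nM R1881 for 24 h. Other libraries are used for reference: NLS and WT cells that received ethanol vehicle (0.1%) in place of R1881, NLSKD cells under R1881, and the levels in the remaining lines. NLSKD is the nuclear form with the kinase-dead change D2357E, NES is mTOR with a nuclear export signal, and EV is the empty vector, so EV cells carry the knockdown without a replacement. The labels call the libraries triplicates without saying that they are separate cultures, and the p-values therefore rest on a spread between samples that could be technical. Whether each line was 1 clone or a pool is not given in the sources used here.

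mTOR is a kinase that works inside larger protein complexes, for the most part at lysosome membranes in the cytoplasm, where it couples the supply of amino acids and growth factors to protein synthesis and cell growth. In prostate cancer cells a portion of mTOR has also been described in the nucleus in connection with androgen signalling. R1881 is a synthetic androgen, and the best known genes that androgen induces in the prostate include KLK3, KLK2, TMPRSS2 and FKBP5. The comparison asks which transcripts differ between cells whose replacement mTOR carries the nuclear signal and WT cells, with androgen present in both groups.

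The 6 libraries held 22.6 M to 39.5 M counts (21.4 M to 61.8 M over all 30), the deepest being NLS replicate 1. Levels are given as CPM, counts scaled to library size with TMM factors, which can be compared between libraries for 1 gene but not between genes of different length. The luminal prostate identity held in both groups: all 10 luminal markers averaged at least 5 CPM, with a summed level of 7080 to 11100 CPM in NLS and 8130 to 10400 CPM in WT. The defining markers KRT5 and TP63 (basal), INSM1 (neuroendocrine), COL1A2 (fibroblast) and PTPRC and CD3E (immune) were at 0 counts in all 6. The 7 basal markers, 1 of which averaged at least 5 CPM, summed to 11.8 to 18.2 CPM in NLS and 10.9 to 14.8 CPM in WT. The summed level of the 8 neuroendocrine markers was 17.5 to 41.6 CPM in NLS and 10.6 to 15.2 CPM in WT, most of it ENO2, and that of the 8 mesenchymal markers was 147 to 247 CPM in NLS and 212 to 259 CPM in WT. Mitochondrially encoded genes took 5.09% to 9.19% of the counts in the 6, highest in NLS replicate 2. In bulk RNA, fewer cells that express a gene and less of its RNA per cell cannot be told apart.

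MTOR itself (ENSG00000198793, hg38 chromosome 1, 11106535 to 11262507) was measured at 1340, 637 and 1133 CPM in the NLS libraries, against 1515, 1813 and 1480 CPM in the WT libraries. Every NLS library lay below every WT library, but the log2 fold change of -0.63 ± 0.33 (standard error, as for all fold changes here) did not pass the test (edgeR adjusted p = 0.902). In EV under R1881 MTOR averaged 66.0 ± 9.54 CPM (SD, n = 3), so both groups were far above the level left by the knockdown. Counts per gene cannot separate the construct's reads from those of the cells' own MTOR, and the level of the replacement and the place it was sent to differ together here and cannot be told apart.

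A small set of genes differed, and most of them were higher with nuclear mTOR. edgeR's quasi-likelihood test, with Benjamini-Hochberg adjustment over all 18296 genes, called 85 genes at an adjusted p under 0.05, which is 0.465% of those tested. Of these 76 were higher in NLS (0.415%) and 9 lower (0.0492%). At an unadjusted p under 0.05 there were 1071 genes (5.85%), 687 higher and 384 lower. The NLS and WT libraries did not overlap for any of the 85, where this was so for 8.89% of all genes tested. The calls came from these same libraries, so the separation adds no support to them. Of the 85, 78 are protein-coding. The genes called higher included transporters, adhesion and cytoskeletal proteins, cancer-testis antigens and signalling receptors, and 31 of the 76 averaged under 1 CPM in WT. Only 3 of the 76 averaged 100 CPM or more in NLS: TRIB3, DDC and LCP1.

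**Figure D1:**
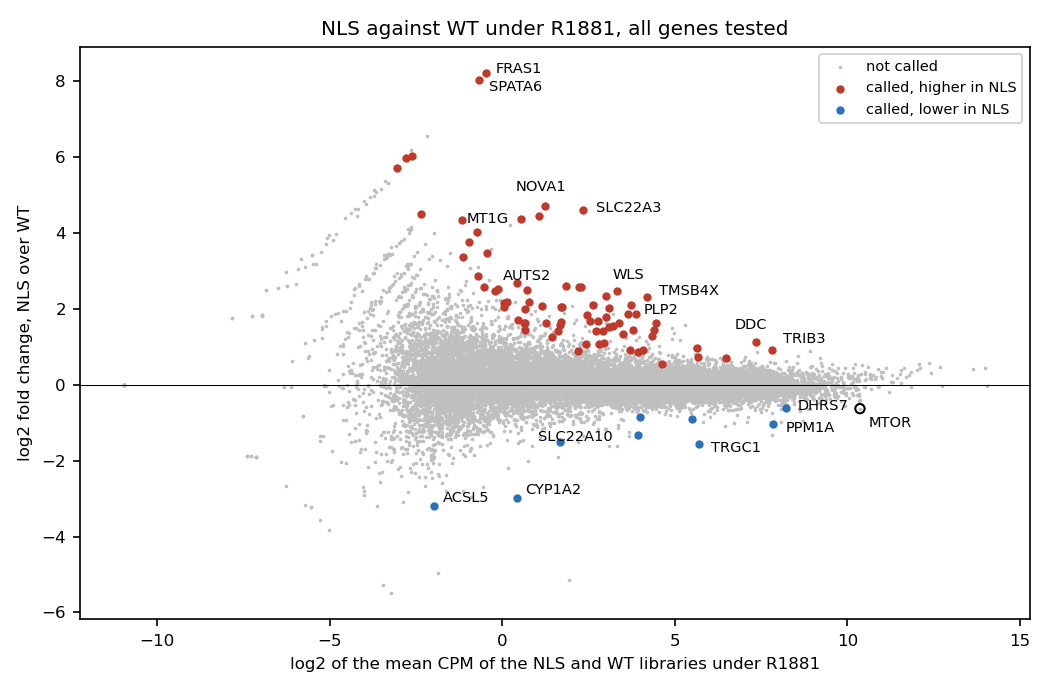
Each point is 1 of the 18296 genes tested; the horizontal axis is the log2 of its mean CPM over the NLS and WT libraries under R1881 and the vertical axis is the log2 fold change of NLS over WT. Red points are the 76 genes called higher and blue points the 9 called lower, grey points were not called, and the open circle is MTOR; most red points lie at low to middle levels.

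The number of calls changed with the model and with the libraries that entered it. Deviations from the group mean correlated by 0.151 to 0.484 for same-numbered NLS and WT libraries and by -0.426 to 0.348 for other numbers. These ranges overlap, so pairing by replicate number is uncertain. A fit with that number as a block called 215 genes (1.18%), all 85 among them. Of the 215, 154 were higher (71.6%, where 76 of 85 were higher without the block) and 61 lower. When these 6 libraries were filtered, scaled and fitted alone, 4 genes were called, PLP2, NOVA1, AUTS2 and SLC22A3, all higher. Leaving out WT replicate 3 left 29 calls, and leaving out WT replicate 1 or WT replicate 2 left 47 each. No called gene changed sign in any of 14 alternative analyses, 24 were called whichever of the 6 libraries was left out, and all 24 were higher in NLS.

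SLC22A3, which encodes an organic cation transporter of the plasma membrane (ENSG00000146477, hg38 chromosome 6, 160348268 to 160452581), had the largest fold change among called coding genes of at least 5 CPM. It was at 11.5, 7.18 and 10.7 CPM in NLS, against 0.233, 0.302 and 0.641 CPM in WT. The lowest NLS library was thus more than 10 times the highest WT library, and the log2 fold change was 4.61 ± 0.63 (adjusted p = 0.000164). Of a list of 10 tested transporters of the SLC22 family it was the 1 called, where 0.465% of all genes were called, and the list's median log2 fold change was 0.18 against 0.01 over all genes. The members of this and later lists were chosen with earlier results of these data known, so such shares are no test of enrichment. SLC22A10, a family member outside the SLC22 list, was called lower. Its neighbour in function SLC22A2, also an organic cation transporter, was at 11.3 ± 7.16 CPM in NLS and 10.0 ± 1.12 CPM in WT (log2 fold change 0.18 ± 0.59). SLC22A3 was called in all 14 alternative analyses, as were AUTS2 and PLP2.

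AUTS2, a nuclear regulator of transcription best known from brain development (chromosome 7, 69598296 to 70793495), was at 6.61, 5.36 and 6.45 CPM in NLS, against 0.893, 1.16 and 0.962 CPM in WT. Its log2 fold change was 2.61 ± 0.30 (adjusted p = 1.47e-05). PLP2, a small proteolipid of intracellular membranes (chromosome X, 49171926 to 49175239), was at 23.0, 23.2 and 19.0 CPM in NLS, against 4.54, 5.43 and 5.27 CPM in WT. In both genes the replicates of a group lay close together and the groups far apart, and PLP2 had the lowest adjusted p of the comparison (log2 fold change 2.10 ± 0.17, adjusted p = 4.09e-08).

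Several called genes encode proteins of adhesion or the cytoskeleton, a grouping made after the values were seen and not tested for enrichment. PARVA, which encodes parvin alpha of focal adhesions, was at 11.1, 5.89 and 7.29 CPM in NLS, against 2.10, 0.949 and 1.03 CPM in WT (log2 fold change 2.57 ± 0.34, adjusted p = 0.000102). NTNG1, an adhesion protein of axons, was at 10.4, 6.27 and 8.17 CPM in NLS, against 1.86, 1.21 and 1.07 CPM in WT (2.59 ± 0.34). In each gene the lowest NLS library was well above the highest WT library. TMSB4X, which encodes a peptide that binds actin monomers, was at 26.8, 40.4 and 23.7 CPM in NLS, against 8.08, 5.26 and 4.92 CPM in WT (2.31 ± 0.33, adjusted p = 0.000329). LCP1, the actin-bundling plastin of blood and cancer cells, showed a smaller difference at 124, 102 and 107 CPM in NLS, against 72.7, 73.2 and 56.3 CPM in WT (0.72 ± 0.14, adjusted p = 0.0104).

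Of 36 tested genes for synaptic adhesion proteins, which join nerve cells and are also present in epithelial cancers, 3 were called, all higher, against 0.465% of all genes in either direction, and the list's median log2 fold change was 0.07. The list was chosen with earlier results of these data known, so this share is no test of enrichment. NLGN1, a neuroligin, was at 22.8, 8.76 and 9.84 CPM in NLS, against 4.12, 3.88 and 2.32 CPM in WT (2.01 ± 0.38, adjusted p = 0.0091). NLS replicate 1 stood above the other NLS libraries, and NLGN1 was not called without it or without WT replicate 3. TENM1, a teneurin, was at 1.39, 0.527 and 1.51 CPM in NLS, against 0, 0.172 and 0.0356 CPM in WT (4.04 ± 0.71). CNTNAP4, a relative of the neurexins, was at 0.367, 0.192 and 0.319 CPM in NLS and had no count in WT, at least 4.92-fold higher against a floor of 3 counts over the WT group. Another member of the list, NLGN4X, was lower in the fit with the block (adjusted p = 0.0172) and not without it (log2 fold change -0.78 ± 0.26, adjusted p = 0.351).

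Components and receptors of developmental signalling pathways were called higher. WLS, which carries Wnt proteins to the cell surface, was at 19.6, 13.1 and 18.1 CPM in NLS, against 4.47, 2.50 and 2.21 CPM in WT (2.47 ± 0.29, adjusted p = 1.69e-05). SMO, the signal transducer of the Hedgehog pathway, was at 5.56, 4.40 and 6.09 CPM in NLS, against 0.854, 1.6 and 1.46 CPM in WT (2.04 ± 0.41, adjusted p = 0.0124). The groups stood clear of each other in both genes. NOTCH3, a Notch receptor, averaged 29.0 ± 4.27 CPM in NLS and 11.9 ± 4.13 CPM in WT (1.28 ± 0.25), and OSMR, a subunit of the oncostatin M receptor, 8.58 ± 4.52 CPM in NLS and 2.42 ± 0.40 CPM in WT (1.84 ± 0.33). The relaxin hormone genes RLN1 and RLN2, neighbours on chromosome 9, were both called higher (1.09 ± 0.22 and 2.00 ± 0.34), and because they are near-identical copies the split of reads between them is uncertain. These roles were put together after the values were seen, and no enrichment was tested. WLS and RLN2 were called whichever library was left out, and SMO, NOTCH3, OSMR and RLN1 were not.

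Cancer-testis antigens, genes active in the germ line and in tumours, made up 4 of the 10 X-linked genes called higher. PAGE1 was at 5.77, 21.1 and 13.2 CPM in NLS, against 3.07, 2.41 and 2.46 CPM in WT (2.33 ± 0.41, adjusted p = 0.00467). MAGEA1 was at 27.9, 21.5 and 19.9 CPM in NLS, against 7.46, 5.95 and 5.63 CPM in WT (1.87 ± 0.18, adjusted p = 1.09e-06). PAGE1 varied widely between NLS libraries, while MAGEA1 was more even. MAGEC1 averaged 11.1 ± 3.42 CPM in NLS and 4.19 ± 0.385 CPM in WT (1.41 ± 0.31), and MAGEC2, a close copy 293 kb away, 4.90 ± 0.687 CPM in NLS and 1.56 ± 0.197 CPM in WT (1.65 ± 0.22). The other X-linked genes called higher were PLP2, TMSB4X, TENM1, TSPAN7, ARMCX4 and GYG2. Chromosome X held 13.2% of the genes called higher and 3.41% of those tested, and chromosome 6 held 9 of the 76 (11.8%) and 4.91% of those tested. These shares were noticed in the data and were not tested.

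PLCXD3, which encodes a phospholipase C domain protein, was at 13.2, 7.75 and 9.20 CPM in NLS, against 1.71, 3.06 and 2.21 CPM in WT (2.12 ± 0.34, adjusted p = 0.00149). SPART, which encodes spartin of endosomes and lipid droplets, was at 6.17, 4.98 and 4.46 CPM in NLS, against 2.06, 1.04 and 0.713 CPM in WT (2.04 ± 0.42, adjusted p = 0.0169). The groups were apart in both, although the WT libraries of SPART were spread widely. Among enzymes and carriers of metabolism, 4 more genes called higher were the bicarbonate cotransporter SLC4A4 (1.64 ± 0.31), the inositol synthesis enzyme ISYNA1 (1.64 ± 0.34), the sulfide oxidase SQOR (1.79 ± 0.25) and the carnitine acetyltransferase CRAT (0.96 ± 0.21). CLU, the secreted chaperone clusterin, was at 10.2, 10.9 and 10.4 CPM in NLS, against 4.23, 3.36 and 2.24 CPM in WT (1.68 ± 0.26, adjusted p = 0.00078). PLCXD3, SQOR and CLU were called whichever library was left out, and SPART, SLC4A4, ISYNA1 and CRAT were not.

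Some of the genes called higher were close to silent with wild-type mTOR. FRAS1, an extracellular matrix protein of basement membranes, had 118 counts over the NLS libraries (1.13, 1.10 and 2.07 CPM) and none over the WT libraries, at least 28.3-fold higher. SPATA6, known from sperm development, had 101 counts over the NLS libraries and none over the WT libraries, at least 26.3-fold higher. NOVA1, a neuronal RNA-binding splicing regulator, was at 5.56, 3.26 and 4.74 CPM in NLS, against 0.272, 0.129 and 0.107 CPM in WT (4.71 ± 0.43, adjusted p = 4.14e-07). MT1G, a metallothionein, had 232 counts in NLS and 10 in WT (4.37 ± 0.69), and reads shared with other metallothioneins make its count uncertain. Under R1881 the EV means of FRAS1, SPATA6 and NOVA1 were 8.58, 3.64 and 17.6 CPM, above the NLS means of 1.43, 1.26 and 4.52 CPM. MT1G averaged 0.336 CPM in EV and 2.78 CPM in NLS. Each of these 4 was called whichever library was left out. FRAS1, SPATA6 and MT1G were not called when the 6 libraries were fitted alone. With limma on log2(FPKM + 1), values scaled by gene length, FRAS1, SPATA6 and NOVA1 were not called.

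**Figure D2:**
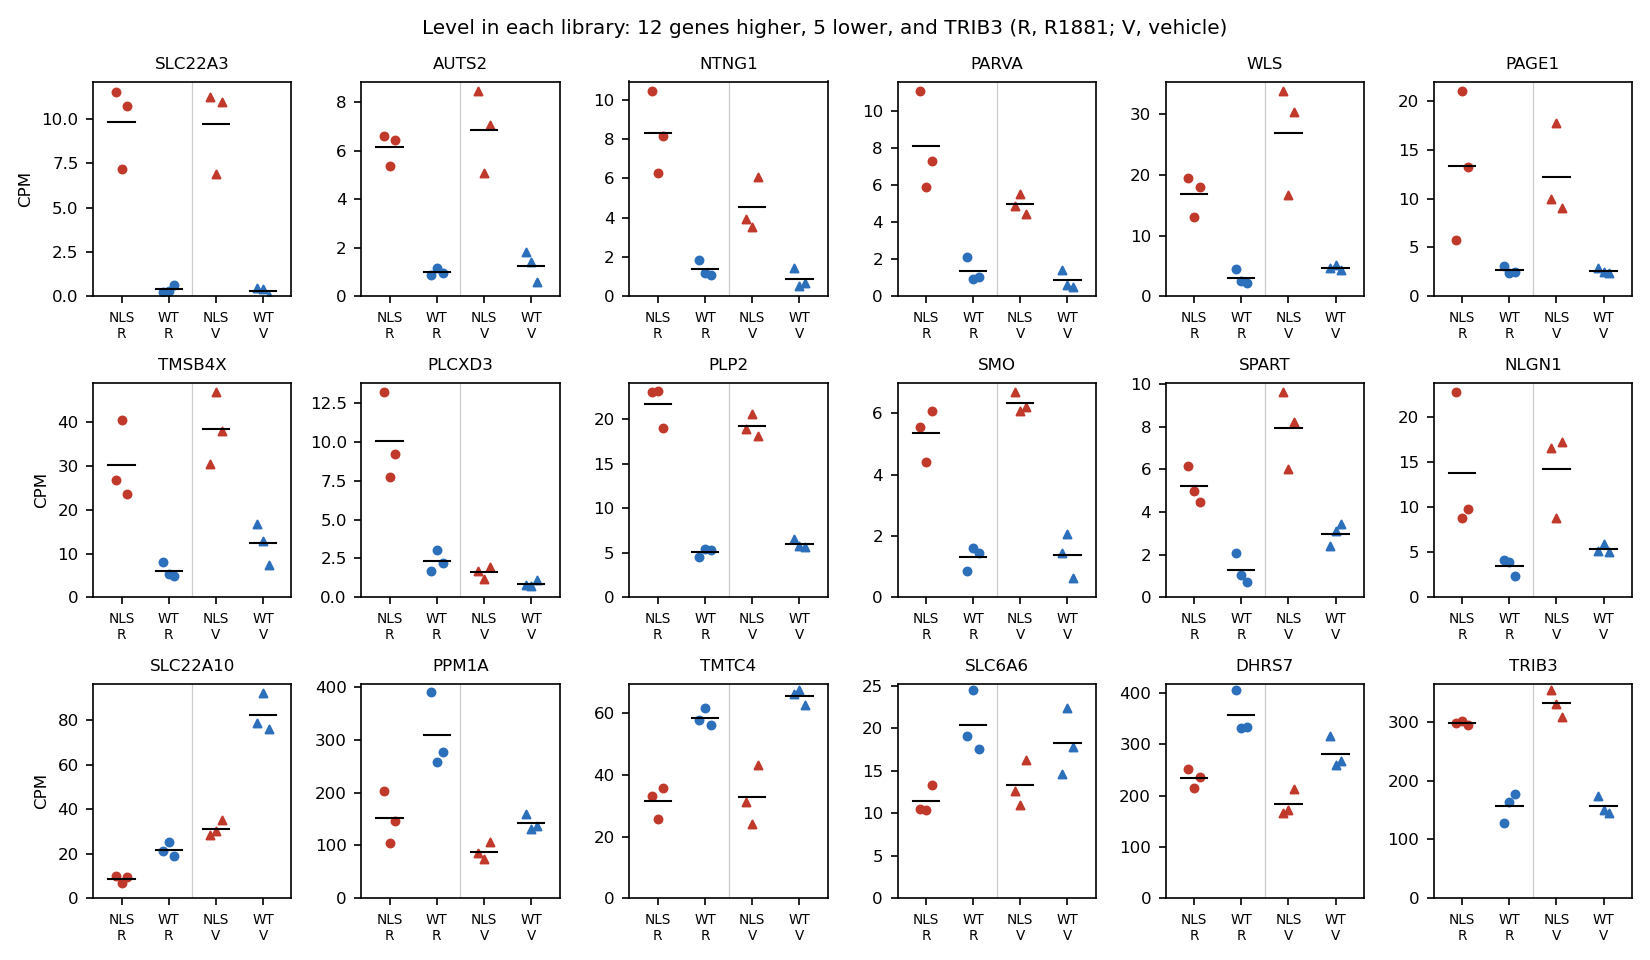
CPM in each library for 12 genes called higher (SLC22A3 to NLGN1), 5 called lower (SLC22A10 to DHRS7) and TRIB3, with NLS in red, WT in blue, circles for R1881 (R), triangles for vehicle (V) and a bar at each mean of 3. The 12 and the 5 genes were chosen among those whose NLS and WT circles do not overlap, and the circles of TRIB3 do not overlap either. The triangles stand apart as well except for SLC6A6.

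The genes that were lower with nuclear mTOR were fewer and their calls less firm. SLC22A10, of the same transporter family as SLC22A3 but outside the list of 10, was at 10.0, 6.85 and 9.44 CPM in NLS, against 21.5, 25.3 and 18.9 CPM in WT (-1.32 ± 0.28, adjusted p = 0.0245). TMTC4, an enzyme that adds mannose to cadherins, was at 33.0, 25.7 and 35.8 CPM in NLS, against 57.8, 61.6 and 56.0 CPM in WT (-0.89 ± 0.18, adjusted p = 0.0136). In both genes every NLS library lay below every WT library, by a smaller fold than for most genes called higher. The neighbours PPM1A, a phosphatase that acts on stress and SMAD signalling, and DHRS7, a short-chain dehydrogenase, lie 75.9 kb apart on chromosome 14. PPM1A was at 202, 105 and 146 CPM in NLS, against 390, 257 and 276 CPM in WT (-1.03 ± 0.23, adjusted p = 0.0385), and DHRS7 at 253, 214 and 237 CPM in NLS, against 406, 331 and 335 CPM in WT (-0.61 ± 0.14, adjusted p = 0.0422). SLC6A6, the taurine transporter, was at 10.4, 10.4 and 13.3 CPM in NLS, against 19.1, 24.5 and 17.5 CPM in WT (-0.84 ± 0.18, adjusted p = 0.0258). Lower calls at low levels were CYP1A2, a drug-metabolizing cytochrome (26 counts in NLS, 186 in WT), ACSL5, an acyl-CoA synthetase (4 counts in NLS, 35 in WT), and the noncoding AC117402.1. Of the 9 genes called lower, none was called in every analysis that left out 1 library.

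Among transcripts without an ordinary coding gene, TRGC1 had the largest decrease. TRGC1 is a constant segment of the T-cell receptor gamma locus, from which prostate cells are known to make a transcript of their own. It was at 25.5, 27.2 and 26.7 CPM in NLS, against 99.4, 59.3 and 73.9 CPM in WT (-1.55 ± 0.32, adjusted p = 0.0171), while the T-cell marker CD3E was at 0. The noncoding genes called higher at 5 CPM or more included AC069228.1 (1.68 ± 0.38), COLCA1 (1.43 ± 0.27) and PCAT1, a long noncoding RNA of prostate cancer (0.93 ± 0.20). PCAT1 was at 17.4, 13.6 and 19.8 CPM in NLS, against 10.9, 7.80 and 7.94 CPM in WT, and 4 other tested genes overlap its span. In all, 26 of the 85 called genes overlap another tested gene, and none of those partners was called, the nearest being LACC1, which overlaps CCDC122 (5.38, adjusted p = 0.0689).

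The classical androgen targets KLK3, KLK2, FKBP5 and TMPRSS2 did not pass the test in either direction. KLK3, which encodes prostate-specific antigen, was at 2420, 4924 and 3523 CPM in NLS, against 3165, 4261 and 3924 CPM in WT (-0.06 ± 0.31, adjusted p = 0.994). KLK2 was at 217, 295 and 269 CPM in NLS, against 170, 167 and 179 CPM in WT (0.60 ± 0.24, adjusted p = 0.625). FKBP5, a co-chaperone of steroid receptors, was at 994, 628 and 736 CPM in NLS, against 1414, 1083 and 1003 CPM in WT (-0.57 ± 0.23, adjusted p = 0.625). The KLK3 libraries overlapped, whereas those of KLK2 lay above and those of FKBP5 below WT in all 3. The log2 fold change of TMPRSS2 (-0.10 ± 0.20) was smaller than its error, and UGT2B17, a steroid-conjugating enzyme, gave -0.38 ± 0.26.

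Of 85 tested genes known to be induced by androgen 0 were called, where 0.465% of all genes were. At an unadjusted p under 0.05, 8 of the 85 were lower and 1 higher, where 384 of all 18296 genes were lower and 687 higher. A positive log2 fold change was found for 19 of the 85, with a median of -0.15. Over all genes tested 50.9% were positive and the median was 0.01. The smallest p of the list was that of PLPP1, a lipid phosphatase, at 362 ± 49.7 CPM in NLS and 566 ± 57.2 CPM in WT (-0.65 ± 0.16, adjusted p = 0.0867). With the block PLPP1 and the transcription factor gene MAF (199 ± 72.9 CPM in NLS and 423 ± 66.0 CPM in WT) were lower, with adjusted p of 0.00684 and 6.38e-05. Of 24 genes known to be repressed by androgen 9 had a positive log2 fold change, and 1, DDC, was called and was higher. With the block CDK6, a cyclin-dependent kinase gene of the same list, was lower (adjusted p = 0.00252), at 12.9, 3.30 and 5.18 CPM in NLS, against 28.4, 14.7 and 12.6 CPM in WT, and without the block it was not called (-1.36 ± 0.48, adjusted p = 0.429). DDC, the enzyme that makes dopamine and serotonin from their precursors, was at 164, 303 and 207 CPM in NLS, against 86.1, 122 and 97.9 CPM in WT (1.14 ± 0.23, adjusted p = 0.0161), and it was not called without NLS replicate 2, WT replicate 1 or WT replicate 3.

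Among genes of amino acid supply TRIB3 was called higher. The transcription factor ATF4, which mTOR signalling and amino acid shortage both act on, drives genes for amino acid uptake and synthesis. Of 41 tested genes of this list 1 was called, against 0.465% of all genes. It is TRIB3, a pseudokinase that restrains ATF4 and AKT. TRIB3 (chromosome 20, 362835 to 397559) was at 299, 301 and 294 CPM in NLS, against 128, 165 and 178 CPM in WT (0.93 ± 0.14, adjusted p = 0.000912). The NLS libraries were close together (SD of 3.37 CPM) and all above the WT libraries. Another 9 members were higher at an unadjusted p under 0.05 and 0 were lower, where 687 of all 18296 genes were higher and 384 lower. In the list 36 of 41 had a positive log2 fold change, and the median was 0.37 against 0.01 over all genes. The list was chosen with earlier results of these data known, and no enrichment was tested.

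With the replicate block 5 of the 41 were called, all higher, where 0.842% of all genes were called higher in that fit. They were TRIB3, the mitochondrial phosphoenolpyruvate carboxykinase PCK2, the transcription factor ATF5, the glutamine transporter SLC1A5 and the leucine transporter SLC7A5. PCK2 was at 472, 754 and 648 CPM in NLS, against 255, 353 and 399 CPM in WT (0.90 ± 0.21, adjusted p = 0.0542 without the block and 0.00322 with it). SLC7A5 was at 11.6, 16.8 and 18.6 CPM in NLS, against 3.38, 7.67 and 11.9 CPM in WT (1.03 ± 0.29, adjusted p = 0.165 without the block and 0.0218 with it). In both genes WT replicate 1 was the lowest of the 6 libraries and NLS replicate 1 the lowest NLS library. Of 20 aminoacyl-tRNA synthetases, which load amino acids onto tRNA, 0 were called and the median was 0.11, with SARS at 372 ± 21.7 CPM in NLS and 267 ± 17.8 CPM in WT (0.48 ± 0.12, adjusted p = 0.105 without the block and 0.0335 with it).

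**Figure D3:**
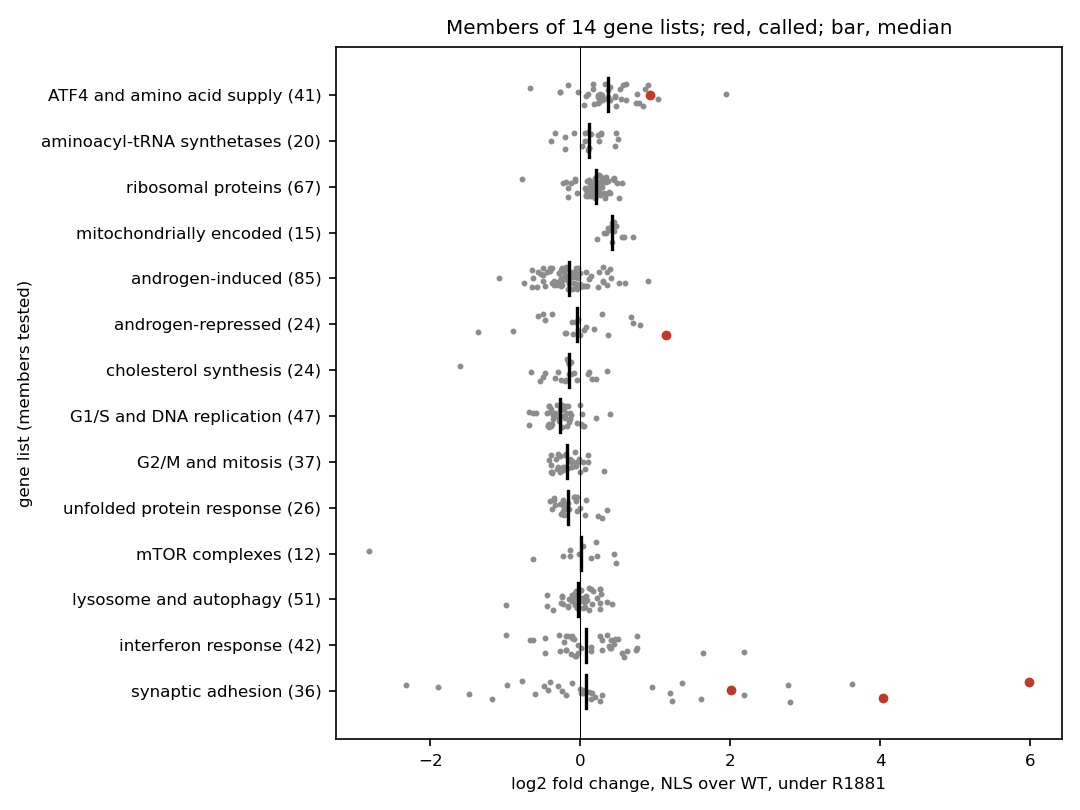
Each row is a gene list with the number of its members tested, each point a member at its log2 fold change of NLS over WT under R1881, red points the called members and the black bar the list's median. The ATF4 list lies mostly to the right of 0 with TRIB3 called, the mitochondrially encoded genes lie wholly to the right with none called, and the lists of androgen-induced and DNA replication genes lie mostly to the left with none called.

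Lists of growth and metabolism held no called gene in the fit without the block. Of 47 genes for the G1/S transition and DNA replication 6 had a positive log2 fold change and the median was -0.27, and of 37 genes for mitosis 5 were positive with a median of -0.18. MCM4, a subunit of the replicative helicase, had the smallest p of the replication list, at 106 ± 15.8 CPM in NLS and 142 ± 6.17 CPM in WT (-0.42 ± 0.17, adjusted p = 0.597). Of 67 ribosomal protein genes 58 were positive with a median of 0.20, and their summed level was 54490 to 121400 CPM in NLS and 62150 to 76180 CPM in WT. All 15 mitochondrially encoded genes were positive, with a median of 0.42, 0 called, and a summed level of 65460 to 99010 CPM in NLS and 51730 to 67500 CPM in WT. These 2 summed levels overlapped between the groups, and their part in other results was not tested. The lists of cholesterol synthesis (median -0.16 over 24), the unfolded protein response (-0.17 over 26), lysosome and autophagy (-0.03 over 51), subunits of the mTOR complexes (0.01 over 12) and regulators upstream of mTOR (0.11 over 34) likewise held 0 called genes. NPC1, a lysosomal cholesterol exporter, was at 113, 52.6 and 109 CPM in NLS, against 193, 164 and 187 CPM in WT (-0.99 ± 0.24, adjusted p = 0.0697), and was lower with the block.

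The same 2 lines under vehicle show whether the differences were present without androgen, in 6 other libraries. The contrast that chose the genes did not use their levels, but they entered the fit of all 30 libraries that set the filter, the scaling and the shared spread, so they are not wholly independent of the choice. There 88 genes were called (0.481%), 72 higher in NLS (0.394%) and 16 lower (0.0875%). Of the 76 genes called higher under R1881, 47 were called higher under vehicle, 75 had a positive log2 fold change, and for 70 all NLS vehicle libraries lay above all WT vehicle libraries, where this held for 12.4% of all genes tested. Of the 9 called lower, 4 were called lower under vehicle, 9 were negative, and 6 did not overlap, against 13.5% of all genes. The median log2 fold change of the 76 was 1.94 under R1881 and 1.58 under vehicle, and that of the 9 was -1.32 and -0.69. The genes were chosen on their R1881 values, which enlarges the R1881 medians. A smaller median under vehicle therefore does not show a larger difference with androgen. The count of calls under vehicle was 58 without NLS replicate 1, 33 without NLS replicate 2, 47 without WT replicate 1 and 35 without WT replicate 3.

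SLC22A3 was at 11.2, 6.88 and 10.9 CPM in NLS under vehicle, against 0.443, 0.390 and 0.0393 CPM in WT under vehicle (5.03 ± 0.65, adjusted p = 9.76e-05). PLP2 was at 18.9, 20.5 and 18.1 CPM in NLS, against 6.53, 5.81 and 5.69 CPM in WT (1.67 ± 0.16), and TRIB3 at 354, 331 and 309 CPM in NLS, against 175, 150 and 146 CPM in WT (1.08 ± 0.14). These levels were close to those under R1881 in both lines. DSC3, a desmosomal cadherin, was at 4.35, 1.66 and 3.58 CPM in NLS under vehicle and had no count in WT under vehicle, and under R1881 it was at 6.69, 1.20 and 4.18 CPM in NLS, against 0.311, 0.0431 and 0.178 CPM in WT. Across all 18296 genes the 2 sets of fold changes had a Pearson r of 0.43 and 72.0% had the same sign, and over the 11160 genes of at least 5 CPM r was 0.70 and 77.6% had the same sign. Genes are not independent replicates, and all these libraries come from the same 2 lines.

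**Figure D4:**
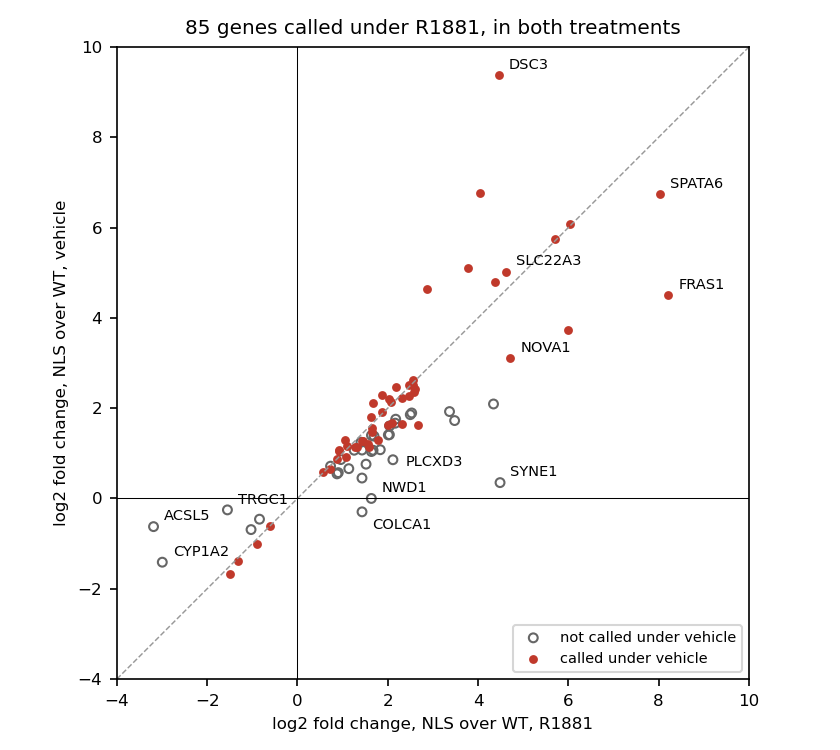
Each point is 1 of the 85 genes called under R1881, with its log2 fold change of NLS over WT under R1881 on the horizontal axis and under vehicle on the vertical axis; red points were also called under vehicle and the dashed line marks equal values. Nearly all points lie in the quadrants of equal sign, with COLCA1 as the exception, and 51 are red.

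The test of whether the difference between NLS and WT itself changed with R1881 called 0 genes in edgeR (304 at an unadjusted p under 0.05, or 1.66%) and 0 in DESeq2 (458 at an unadjusted p under 0.05). Without a filter on low counts the same edgeR test called 15. Of the 85 genes, 13 had an unadjusted p under 0.05 in this test, and the smallest adjusted p was 0.682, shared by COLCA1 and NWD1. The test contains the R1881 difference that chose the 85, so their share cannot be set against that of all genes. COLCA1 was at 34.6, 28.4 and 28.4 CPM in NLS with R1881, against 12.3, 14.5 and 7.16 CPM in WT with R1881, while under vehicle it was at 102, 86.5 and 132 CPM in NLS and 166, 128 and 99.8 CPM in WT. NWD1 was at 2.91, 2.30 and 1.87 CPM in NLS with R1881, against 0.544, 0.690 and 1.03 CPM in WT with R1881, and the vehicle means were equal at 4.84 ± 1.21 CPM in NLS and 4.84 ± 1.08 CPM in WT. In both the lines overlapped under vehicle and stood apart under R1881, but the difference of fold changes (1.73 ± 0.37 and 1.64 ± 0.36) did not survive adjustment. PLCXD3 under vehicle was at 1.6 ± 0.393 CPM in NLS and 0.885 ± 0.221 CPM in WT, a log2 fold change of 0.86 ± 0.37, with an unadjusted p of 0.018 for the difference from R1881. TRGC1 was nearly absent without androgen, at 0.445 ± 0.291 CPM in NLS and 0.532 ± 0.338 CPM in WT.

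The kinase-dead nuclear form shows how far the same genes differ when the nuclear mTOR carries D2357E. It was set against the same WT libraries, so its values share their error with those of NLS and no overlap is counted. Against WT under R1881, 156 genes were called in NLSKD (0.853%), 120 higher (0.656%) and 36 lower (0.197%), with 7.89% of genes at an unadjusted p under 0.05. SLC22A3 was at 9.56, 7.87 and 5.88 CPM in NLSKD (log2 fold change over WT 4.27 ± 0.63, where NLS gave 4.61), AUTS2 at 6.79, 6.0 and 5.97 CPM (2.63 ± 0.30, NLS 2.61), PLP2 at 25.8, 26.1 and 18.7 CPM (2.21 ± 0.17, NLS 2.10) and TRIB3 at 344, 300 and 290 CPM (0.99 ± 0.14, NLS 0.93). For these 4 genes the NLSKD libraries lay in or near the range of the NLS libraries. They are examples and do not stand for all genes called in NLS. MTOR was at 1456, 727 and 1064 CPM in NLSKD (-0.57 ± 0.32), about the level in NLS. The count of calls in NLSKD was 94 without WT replicate 2, 89 without WT replicate 3 and 74 when the 2 groups were fitted alone.

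Set against each other directly, NLS and NLSKD differed in 1 gene of 18296 (0.00547%), with 357 at an unadjusted p under 0.05 (1.95%). That gene was MAGEC1, at 12.7, 7.18 and 13.5 CPM in NLS, against 2.53, 1.39 and 2.08 CPM in NLSKD (2.47 ± 0.32, adjusted p = 0.000913), with WT between them at 3.77 to 4.52 CPM. Its neighbour MAGEC2 averaged 4.90 CPM in NLS and 2.16 ± 0.515 CPM in NLSKD and was not called. SMO, called higher in NLS, was at 5.35 ± 0.86 CPM in NLS and 2.53 ± 1.06 CPM in NLSKD, a difference of 1.08 ± 0.39 that did not pass (adjusted p = 1). The differences between NLS and NLSKD were 0.34 ± 0.51 for SLC22A3, -0.02 ± 0.27 for AUTS2, -0.12 ± 0.16 for PLP2 and -0.06 ± 0.14 for TRIB3, and a test that is not passed does not show that the 2 forms act alike. Among the 85 genes called against WT, 24 (28.2%) had an unadjusted p under 0.05 between NLS and NLSKD, against 1.95% of all genes. The NLS libraries also chose the 85, so this share has no matched baseline. PAGE1 (1.15 ± 0.39) and SPATA6 (1.37 ± 0.45) were higher in NLS than in NLSKD and TMSB4X (-0.76 ± 0.31) was lower, none of them called.

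The levels in the other lines place the genes within the series. The vehicle libraries were in the same fit but not in the contrast that chose the genes. Under vehicle the WT mean was the lowest of the 5 lines for 59 of the 76 genes called higher (77.6%), against 24.8% of all genes tested. The EV mean was above the WT mean for 70 of the 76 (50.6% of all genes), the NES mean for 66 (50.1%) and the NLSKD mean for 74 (49.2%). The 76 were chosen for lying higher in NLS than in WT, so the shares over all genes are not matched baselines. All of these positions rest on the same 3 WT vehicle libraries. The counts that follow have no share over all genes beside them, so they only describe the 76. For 51 of the 76 the EV mean was above the NLS mean, and for 50 NLS lay between WT and EV. SLC4A4 is an example, at 18.9 ± 5.43 CPM in NLS, 269 CPM in EV and 9.16 ± 1.27 CPM in WT under vehicle. For 16 of the 76 NLS was above WT, EV and NES. SLC22A3 belongs to these, with vehicle means of 9.68 ± 2.43 CPM in NLS, 0.291 ± 0.219 CPM in WT and 0.123 CPM in EV, and so do TRIB3 (331 CPM in NLS, 157 CPM in WT, 168 CPM in EV) and PAGE1 (12.2 CPM in NLS, 2.59 CPM in WT, 3.31 CPM in EV).

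**Figure D5:**
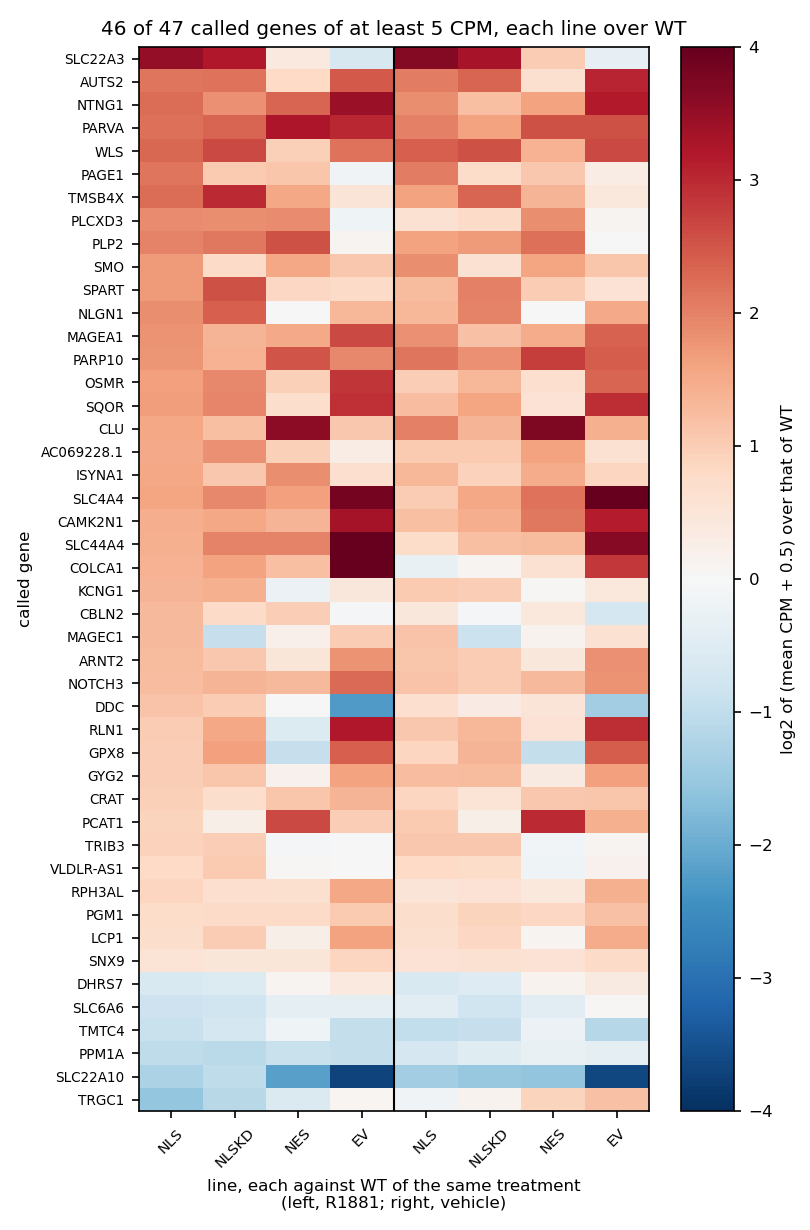
Rows are 46 of the 47 called genes that average at least 5 CPM in NLS or WT under R1881, ordered by fold change, and columns are the lines under R1881 (left) and vehicle (right); colour is the log2 ratio of a line's mean CPM to that of WT under the same treatment after adding 0.5 CPM to each (red higher, blue lower, cut at 4 and -4). All columns share the WT libraries of their treatment. Most rows are red in both the NLS and the NLSKD column, and SLC22A3, TRIB3 and PLP2 are not red in EV. PLP2 is red in NES as well, at 32.3 CPM under R1881, against 21.7 CPM in NLS and 5.08 CPM in WT. Under R1881 the NES means of CLU, PCAT1 and PARVA were also above the NLS means, and those of SLC22A3 and TRIB3 were below.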

How the data were processed

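Total RNA was sequenced as paired-end libraries from 30 samples. Reads were aligned to hg38 with HISAT2 2.0.5 and assigned to genes with featureCounts 1.5.0-p3, per the submitters' processing notes, and the authors deposited raw counts per gene. FPKM values, which the authors scaled by gene length and depth, were deposited beside them. The strand setting of the counting is not given in the sources used here, so reads of overlapping genes cannot be told apart.

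Counts were fitted with edgeR 4.0.16 (quasi-likelihood test, R 4.3.3) over all 30 libraries with 10 group means, TMM scaling and filterByExpr, which kept 18296 of 58735 genes. Calls have an adjusted p under 0.05 (Benjamini-Hochberg over all genes tested). The fit was tested on simulated data. Libraries were grouped by their labels. Replicates were compared within NLS and WT under both treatments and within NLSKD under R1881. They differed by more than sampling noise in every pair (chi-square per degree of freedom of at least 11.6), so none was counted as a duplicate. The other groups were not compared in this way. Depth was 21.4 to 61.8 M counts per library.

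Between NLS and WT under R1881, deviations from the group mean correlated by 0.151 to 0.484 for libraries of the same number and by -0.426 to 0.348 for other numbers. These ranges overlap: NLS replicate 2 correlated by 0.348 with WT replicate 3 and by 0.246 with WT replicate 2. Same-numbered libraries were taken as pairs only in the fit with the block, and on that uncertain basis alone, since the labels do not say what a number marks. The main fit was not paired.

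Alternatives were DESeq2 size factors, DESeq2 1.42.0, no filter, a fit of the compared groups alone, the replicate block, limma 3.58.1 on log2(FPKM + 1) and log2(FPKM + 0.1), and leaving out each library. Leaving out 5 libraries with over 9% mitochondrial counts was added after seeing the data. Named genes are, per direction, the 12 largest fold changes among called coding genes of at least 5 CPM without overlap (5 qualified as lower), the 3 largest among other called genes, up to 4 called members of each list or else the member with the smallest p, and MTOR and a fixed set of androgen genes. Further called genes, those near silence in WT among them, were named after their values were seen. Some genes that the rule names are not reported here. The members and lists were chosen with earlier results of these data known.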

Additional observations from a re-analysis of the deposited data

How the results depend on the processing

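DESeq2 called 176 genes in NLS against WT under R1881, 255 under vehicle, 283 in NLSKD against WT and 2 in NLS against NLSKD. Without a filter on low counts these were 155, 566, 220 and 9, and the test of the change with R1881 called 15. Fitting only the compared groups gave 4 under R1881, 65 under vehicle, 74 for NLSKD and 0 for NLS against NLSKD. The replicate block gave 215, 432, 329 and 2. Under R1881 same-number correlations were all positive for NLS with WT and for NLS with NLSKD (0.00137 to 0.541). Both ranges overlapped those of other numbers. For NLS with WT under vehicle and NLSKD with WT under R1881 some same-number correlations were negative. limma on log2(FPKM + 1) gave 56 under R1881 (75.0% higher), 150 under vehicle and 2 for NLS against NLSKD. Without the libraries of high mitochondrial share, 41 genes were called under vehicle and 57 under R1881 (56 higher). Leaving out 1 library gave 29 to 67 calls under R1881, 33 to 84 under vehicle and 89 to 118 for NLSKD. Where a count moved with the filter, the compared groups or a left-out library, other genes or fewer samples entered the fit. For the other settings the cause was not tested.

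Genes not called in the comparison changed sign. The log2 fold change of KLK3 ranged over -0.35 to 0.16 and TMPRSS2 over -0.20 to 0.12 when 1 library was left out, and CD4 over -0.85 to 0.17. Of the values for named genes, 775 kept direction and side of the threshold, 103 lost the call, 25 gained it and 4 changed sign. Depth limits the genes under 1 CPM most.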
